A study of Mus musculus with 5 samples.

Results

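The genes described here are the small nucleolar RNA (snoRNA) host genes and the snoRNA genes that droplet libraries of mouse blood progenitors detect. They are the symbols Snhg followed by a number, Gas5, Dancr, Epb41l4aos, Zfas1 and all symbols that begin with Snora or Snord, where at least 20 unique molecular identifiers (UMIs, 1 per captured RNA molecule) were counted over the 5 libraries. Of 159 such symbols, 33 passed, all 18 hosts and 15 of the 141 Snora and Snord genes, out of 20549 genes of any kind that reach the same minimum and 55450 genes in all. Among the Snora and Snord genes, 91 had no UMI. Snord93 lay just inside the limit with 23 UMIs, and Snora62 just outside it with 19.

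Bone marrow progenitors of wild-type (WT) Balb/C mice, 8 to 12 weeks old, were enriched for c-Kit and sorted as lineage-negative cells. Granulocyte-monocyte progenitors (GMP, c-Kit+ Sca-1- CD34+ with high CD16/32) gave 3 libraries, which the submitters call biological replicates. Common myeloid progenitors (CMP, the same but with low CD16/32) gave 1 library, and lymphoid-primed multipotent progenitors (LMPP, c-Kit+ Sca-1+ CD34+ Flt3+) gave 1 library. All were made with 10x Genomics 3' chemistry, which primes on poly-A tails.

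A snoRNA host gene is transcribed and spliced like any other gene, and its snoRNAs are cut out of the introns. Box C/D snoRNAs guide the methylation and box H/ACA snoRNAs the pseudouridylation of ribosomal RNA, so hosts serve ribosome production. The spliced exons that remain carry no long reading frame in most of the Snhg genes. Many of these transcripts begin with the pyrimidine-rich 5' terminal oligopyrimidine (TOP) stretch known from ribosomal protein mRNAs, and they are degraded by nonsense-mediated decay when they are translated. Gas5 was named for its accumulation in growth-arrested cells. Mature snoRNAs have no poly-A tail.

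The start sites of the hosts are shown because they separate hosts with a TOP-like start from those without one. Sequences are RefSeq promoters (build GRCm38.p6), 20 bases before to 30 bases after the annotated start, on the strand of the gene. Capitals mark a C followed by at least 4 further bases of C or T that begins within 5 bases of the start.
Gas5, second annotated start (chr1:161035146-161035195, + strand): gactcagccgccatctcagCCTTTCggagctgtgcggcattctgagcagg
Snhg12 (chr4:132308658-132308707, + strand): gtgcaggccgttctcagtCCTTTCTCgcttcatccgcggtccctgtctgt
Snhg8 (chr3:123508307-123508356, - strand): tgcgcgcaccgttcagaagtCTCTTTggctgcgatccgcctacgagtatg
Snhg3 (chr4:132353657-132353706, - strand): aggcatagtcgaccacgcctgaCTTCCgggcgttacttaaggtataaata
Snhg9 (chr17:24719936-24719985, - strand): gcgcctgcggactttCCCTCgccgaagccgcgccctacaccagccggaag
Zfas1 (chr2:167062914-167062963, + strand): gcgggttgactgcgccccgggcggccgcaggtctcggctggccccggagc
Dancr (chr5:74093040-74093089, + strand): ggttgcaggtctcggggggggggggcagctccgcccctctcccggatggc
Snhg20 (chr11:117076763-117076812, + strand): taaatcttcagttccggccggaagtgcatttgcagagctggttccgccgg
Snhg5 (chr9:88522868-88522917, - strand): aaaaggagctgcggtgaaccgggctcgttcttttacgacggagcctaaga
Snhg1 (chr19:8723467-8723516, + strand): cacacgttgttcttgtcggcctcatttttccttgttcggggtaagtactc

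The table of promoters matched 16 of the 18 hosts, with 18 starts. Of these starts, 7 (38.9%) held the TOP-like run, namely the second start of Gas5 and those of Snhg12, Snhg8, Snhg3, Snhg9, Snhg10 and Snhg18. The first annotated start of Gas5 held none. The same run was found in 18.3% of 32851 promoters of all genes and in 43.3% of 67 promoters of ribosomal proteins. The E-box CACGTG, searched on both strands over 300 bases, was in 2 of the 18 host windows (11.1%), against 7.15% of all promoters. A match describes these letters, and no match says only that they are absent from this window.

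Sequences of some snoRNA members whose counts are compared further on follow, on the strand of the gene, from GENCODE M21 transcripts (GRCm38, mm10). In the box C/D snoRNA the capitals mark box C (TGATGA) and box D (CTGA), and in the H/ACA snoRNAs the ACA box.
Snord118 (chr11:69073427-69073561, + strand): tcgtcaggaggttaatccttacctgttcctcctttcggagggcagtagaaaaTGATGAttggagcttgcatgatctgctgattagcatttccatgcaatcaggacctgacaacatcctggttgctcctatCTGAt
Snora78 (chr17:24719676-24719803, - strand): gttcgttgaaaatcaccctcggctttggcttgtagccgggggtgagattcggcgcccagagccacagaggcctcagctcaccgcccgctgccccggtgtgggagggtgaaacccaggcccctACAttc
Snora31 (chr14:75847905-75848034, + strand): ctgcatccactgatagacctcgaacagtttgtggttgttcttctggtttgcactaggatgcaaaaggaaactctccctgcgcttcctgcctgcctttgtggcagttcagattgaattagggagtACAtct
Snora21 (chr11:97781639-97781775, - strand): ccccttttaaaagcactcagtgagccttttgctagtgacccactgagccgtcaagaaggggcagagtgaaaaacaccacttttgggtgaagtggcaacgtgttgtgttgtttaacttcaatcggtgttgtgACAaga
Snora73b (chr4:132352322-132352526, - strand): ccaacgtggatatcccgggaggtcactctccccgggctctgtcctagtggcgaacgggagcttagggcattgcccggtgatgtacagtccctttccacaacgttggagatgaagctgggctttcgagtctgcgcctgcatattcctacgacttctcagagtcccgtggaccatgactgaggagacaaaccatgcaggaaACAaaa

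All 7 Snora members ended with the ACA box, all 8 Snord members held box D, and 6 of the 8 held both boxes. Snord13 and Snord118 overlap no other annotated gene and are transcribed from their own promoters. Snora78 lies in Snhg9, Snora73b in Snhg3, Snora31 in Tpt1 and Snora21 in Rpl23. The overlap matters for reading the counts, because a read that is compatible with exons of more than 1 gene cannot be given to either. Snhg3 shares exon sequence on the same strand with Rcc1, Snhg9 is antisense to Rps2, and Zfas1 overlaps Znfx1 and Gas5 overlaps Zbtb37 on the opposite strand. Annotated exons of Gas5, Snhg1, Zfas1, Snhg8, Snhg12, Snhg15, Snhg5, Dancr and Snhg17 also overlap snoRNA genes on the same strand. How strand was used in counting, and whether intron reads were counted, is not given in the sources used here.

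After filtering, 8429, 9016 and 7334 GMP cells, 6880 CMP cells and 7511 LMPP cells remained, with 97033567, 117950475 and 113732242 UMIs in GMP replicates 1, 2 and 3, 80278390 in CMP and 83875279 in LMPP. Any pair of libraries shared 13 to 33 barcodes, at most 0.399% of the smaller library. The 10 granulocyte marker genes (Elane and others) summed to 32206 to 36124 CPM (the gene's UMIs relative to all UMIs of the library, on the usual counts-per-library scale) in GMP, 3880 CPM in CMP and 2853 CPM in LMPP. The 7 stem cell genes (Hlf and others) summed to 27.9 to 37.8 CPM in GMP, 338 CPM in CMP and 1356 CPM in LMPP. All genes of both lists had UMIs in every library. Genes of mature neutrophils, a cell type outside the LMPP gate, summed to 224 to 298 CPM in GMP, 35.6 CPM in CMP and 2118 CPM in LMPP, with all 5 genes detected in LMPP. GMP replicate 1 stood apart from the other GMP libraries: mitochondrial genes summed to 7917 CPM in it, against 12994 and 14014 CPM in replicates 2 and 3, and 15 protein-coding snoRNA hosts to 10684 CPM, against 15799 and 16438 CPM.

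Taken as a group, the 18 hosts made up 1465, 1670 and 1588 CPM of the GMP libraries, 2075 CPM of CMP and 2338 CPM of LMPP. The 15 snoRNA genes added 6.52, 4.85 and 4.77 CPM in GMP, 4.73 CPM in CMP and 4.65 CPM in LMPP. Per cell, all members together gave 16.9, 21.9 and 24.7 UMIs in GMP, 24.3 in CMP and 26.2 in LMPP. Levels are counts of 3' ends and are not divided by length. Scaled by total UMIs, as CPM are, the median gene in GMP differed by -0.33 (log2) from CMP and by -0.70 from LMPP. How often all GMP libraries lay on 1 side of CMP and LMPP was not counted over all genes. Values of GMP are given in the order of replicates 1, 2 and 3.

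Of the 13 hosts at a mean of 20 CPM or more, those with a TOP-like start (for Gas5 its second start only) are given before the others. Gas5, the growth arrest transcript and host of several box C/D snoRNAs, had 612, 672 and 649 CPM in GMP, 963 CPM in CMP and 1066 CPM in LMPP. Snhg8, host of Snora24, had 120.1, 145 and 159 CPM in GMP, 155 CPM in CMP and 258 CPM in LMPP. For Gas5 each GMP library was below CMP and LMPP, whereas for Snhg8 CMP lay within the GMP range and LMPP above it. Snhg3, host of the H/ACA snoRNAs Snora73a and Snora73b, had 141, 138 and 112 CPM in GMP, 140.3 CPM in CMP and 110.2 CPM in LMPP. Snhg12, host of 4 named snoRNAs, had 51.8, 62.2 and 67.6 CPM in GMP, 78.4 CPM in CMP and 118 CPM in LMPP. Snhg9, the host of Snora78, ran the other way, with 40.0, 43.1 and 33.9 CPM in GMP, 25.6 CPM in CMP and 11.8 CPM in LMPP, and its groups did not overlap.

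Among the other hosts, Snhg6 and Epb41l4aos had no start to search and the rest had no TOP-like run. Zfas1 had 155, 170.5 and 150.3 CPM in GMP, 240.1 CPM in CMP and 269 CPM in LMPP. Snhg1 had 156, 221 and 205 CPM in GMP, 222 CPM in CMP and 253 CPM in LMPP. Zfas1 was lower in each GMP library than in CMP and LMPP, and the second GMP library of Snhg1 lay next to CMP. Snhg5, host of Snord50a and Snord50b, had 22.6, 42.2 and 40.4 CPM in GMP, 28.5 CPM in CMP and 32.4 CPM in LMPP. Snhg6, host of Snord87, had 14.6, 31.8 and 34.7 CPM in GMP, 32.2 CPM in CMP and 49.9 CPM in LMPP. In both of these the first GMP library was the lowest of all 5 libraries, and the other GMP libraries lay near or above CMP. Snhg15, host of Snora9, had 36.6, 35.2 and 35.4 CPM in GMP, 40.1 CPM in CMP and 32.3 CPM in LMPP. Snhg20 had 21.4, 18.5 and 17.0 CPM in GMP, 24.7 CPM in CMP and 20.5 CPM in LMPP. Dancr, host of Snora26, had 16.3, 19.0 and 16.8 CPM in GMP, 24.6 CPM in CMP and 23.9 CPM in LMPP. Dancr was thus lower in CPM in every GMP library than in CMP and LMPP, on a scale where the median gene was lower as well. With edgeR's TMM factors, used further on, Dancr in GMP differed from LMPP by 0.16 (log2). The GMP libraries of Snhg15 lay between LMPP and CMP, and those of Snhg20 overlapped with LMPP. Epb41l4aos had 57.3, 51.2 and 48.2 CPM in GMP, 74.3 CPM in CMP and 66.8 CPM in LMPP.

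**Figure D1:**
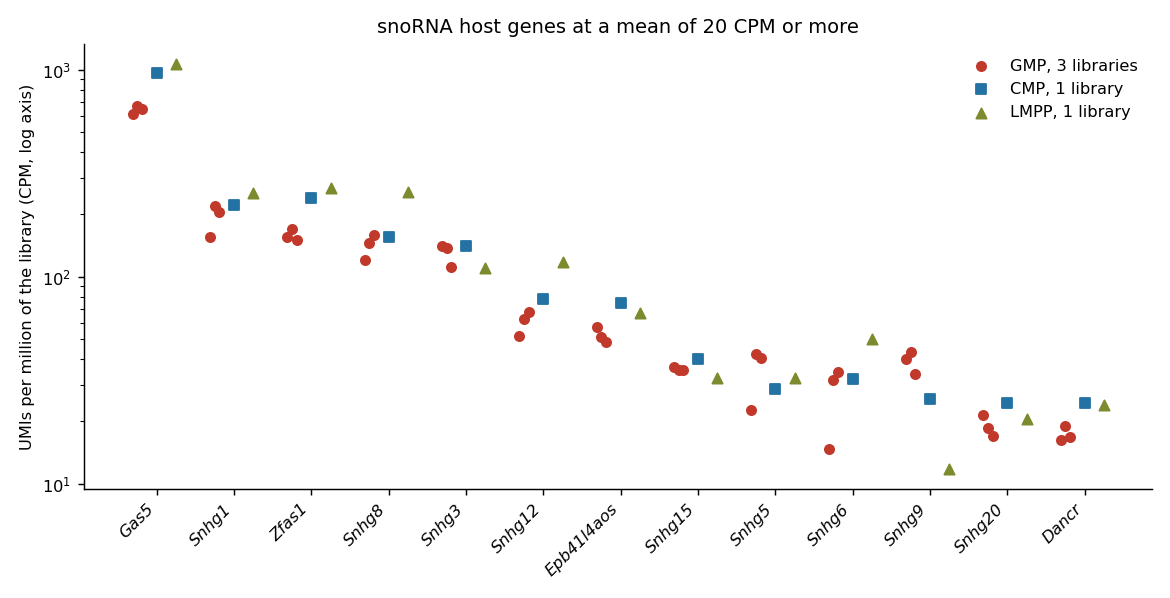
CPM (log axis) of the 13 hosts at a mean of 20 CPM or more, with 1 point per library: red circles for the 3 GMP libraries, blue squares for CMP and green triangles for LMPP. Gas5 and Zfas1 lie lower in all 3 GMP libraries than in CMP and LMPP, and Snhg9 (33.9 to 43.1 CPM in GMP, 11.8 CPM in LMPP) lies higher. With scaling by total UMIs the median gene in GMP differed by -0.33 (log2) from CMP and by -0.70 from LMPP.

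The 5 hosts under this level were Snhg17 (14.6 to 15.99 CPM in GMP, 20.7 CPM in CMP, 18.0 CPM in LMPP), Snhg10, Snhg14, Snhg18 and Snhg11. Snhg14, the long host of the imprinted Snord clusters, had 0.392, 1.17 and 1.33 CPM in GMP, 0.610 CPM in CMP and 1.73 CPM in LMPP. Snhg18 had 1, 10 and 10 UMIs in GMP, 27 UMIs in CMP and 84 UMIs in LMPP. Snhg11 had 16, 23 and 17 UMIs in GMP, 3 UMIs in CMP and 6 UMIs in LMPP. Counts this low leave Snhg18 and Snhg11 with wide counting intervals, given beside their comparisons.

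The snoRNA genes were rare in these poly-A primed libraries, at no more than 2.14 CPM each. Snord13, a box C/D snoRNA involved in 18S rRNA acetylation, had 208, 176 and 134 UMIs in GMP, 82 UMIs in CMP and 50 UMIs in LMPP. Snord118 (U8), needed for processing of the large subunit rRNAs, had 57, 60 and 75 UMIs in GMP, 25 UMIs in CMP and 31 UMIs in LMPP. In CPM both were higher in every GMP library than in CMP and LMPP. Snora78 had 126, 109 and 119 UMIs in GMP, 71 UMIs in CMP and 50 UMIs in LMPP. Snora57 had 108, 107 and 97 UMIs in GMP, 95 UMIs in CMP and 97 UMIs in LMPP. Snora73b had 61, 29 and 15 UMIs in GMP, 25 UMIs in CMP and 11 UMIs in LMPP. Snora73b spread widely between GMP libraries (0.132 to 0.629 CPM), with a coefficient of variation (CV, SD over mean) of 77.6% where counting alone gives 19.8%. Snora31, in the TOP gene Tpt1, had 10, 9 and 15 UMIs in GMP, 16 UMIs in CMP and 41 UMIs in LMPP. Snora21, in Rpl23, had 7, 12 and 11 UMIs in GMP, 12 UMIs in CMP and 36 UMIs in LMPP. These 2 genes were highest in LMPP.

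The other 8 snoRNA genes had at most 24 UMIs in any library. Snord92, in Wdr43, had 21, 18 and 10 UMIs in GMP, 21 UMIs in CMP and 13 UMIs in LMPP. Snord111, in Sf3b3, had 15, 13 and 24 UMIs in GMP, 10 UMIs in CMP and 6 UMIs in LMPP. Snord43, in Rpl3, had 5, 5 and 9 UMIs in GMP, 3 UMIs in CMP and 15 UMIs in LMPP. Counting error alone gives these 3 genes a CV of 24.9% to 41.3% over the GMP libraries. Snord35a, in Rpl13a, had 3, 7 and 7 UMIs in GMP, 9 UMIs in CMP and 10 UMIs in LMPP. Snora17 had 3, 5 and 5 UMIs in GMP, 4 UMIs in CMP and 15 UMIs in LMPP. Snord104 had 5, 8 and 14 UMIs in GMP, 5 UMIs in CMP and 3 UMIs in LMPP. For Snora17, LMPP was above all GMP libraries, and the other counts overlapped or lay within a few UMIs of each other. Snord93 had 1, 6 and 3 UMIs in GMP, 1 UMI in CMP and 8 UMIs in LMPP, and Snora41, in Eef1b2, had 3, 8 and 4 UMIs in GMP, 1 UMI in CMP and 4 UMIs in LMPP.

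The spread between GMP libraries was next described for the 11 members at a mean of 20 CPM or more in GMP. Their median CV was 12.4%, against 7.25% over 4800 genes at that level, 7.95% over 77 ribosomal protein genes and 10.3% over 19 other TOP genes. Snhg6 varied most of the 11, with 27.0 ± 10.9 CPM (SD, n = 3, CV 40.1%), and Snhg5 had 35.1 ± 10.8 CPM (SD, n = 3, CV 30.8%). Snhg1 averaged 194 ± 33.6 CPM (SD, n = 3, CV 17.3%). Snhg15 was the steadiest of the 11, with 35.8 ± 0.748 CPM (SD, n = 3, CV 2.09%, where counting alone gives 1.60%). Gas5 averaged 644 ± 30.3 CPM (SD, n = 3, CV 4.70%) and Zfas1 159 ± 10.5 CPM (SD, n = 3, CV 6.63%). For 6 of the 11 members replicate 1 was the lowest library, as it was for 50.9% of the 4800 genes. Without replicate 1 the median CV of the members was 5.82%, without replicate 3 it was 7.94%, and without replicate 2 it was 16.3%. Mitochondrial and protein-coding host levels moved with the same library, as given above, and their part in the spread was not tested.

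GMP were first compared with CMP, 3 libraries against 1. On the scale of edgeR's TMM factors, Snhg9 was higher in GMP and the abundant hosts did not pass the test, although Gas5 and Zfas1 had lower CPM in each GMP library. The scale matters here: the TMM factors were 0.829, 0.887 and 0.912 for GMP, 1.10 for CMP and 1.35 for LMPP, and the median gene differed by -0.04 (log2) with them and by -0.33 when libraries were scaled by total UMIs alone. Calls on either scale are therefore given for the members. Only the GMP libraries give this test its spread (2 residual degrees of freedom), and CMP and LMPP are taken to have the same one.

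Of 31 members tested against CMP, 3 were higher in GMP (all genes: 13.5% higher) and 1 was lower (all genes: 19% lower), shares no larger than the background. Snhg9 was higher by 0.92 ± 0.18 (log2 difference, SE, edgeR quasi-likelihood test, adjusted p = 0.0068), and by 0.61 with scaling by total UMIs (adjusted p = 0.027), and it passed in all 10 alternatives. Its antisense partner Rps2 differed by 0.06 (adjusted p = 0.84) on the TMM scale. Snord118 was higher by 1.16 ± 0.37 (edgeR adjusted p = 0.048), but by 0.87 with scaling by total UMIs (adjusted p = 0.108). Snhg11 had a CPM ratio of GMP to CMP of 4.56 with a 95% counting interval of 1.48 to 22.8, from 56 UMIs against 3 (edgeR adjusted p = 0.033). Snhg18 had a CPM ratio of 0.190, with a counting interval of 0.102 to 0.349, from 21 UMIs against 27 (edgeR adjusted p = 0.047). DESeq2's Wald test gave these last 3 genes adjusted p of 0.139 to 0.195, so that of the 4 calls that of Snhg9 alone did not depend on the tool.

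With scaling by total UMIs, GMP had 6 members below CMP (all genes: 30.3%) and 2 above it (all genes: 7.34%), Snhg9 and Snhg11. The 6 lower members were Zfas1 (-0.60 ± 0.12, edgeR adjusted p = 0.0075), Gas5 (-0.58 ± 0.12, adjusted p = 0.0071), Epb41l4aos (-0.51, adjusted p = 0.023), Dancr (-0.50, adjusted p = 0.032), Snhg17 (-0.44, adjusted p = 0.045) and Snhg18. The median gene stood at -0.33 on that scale, and on the TMM scale the differences of Gas5 and Zfas1 were -0.28 (adjusted p = 0.154) and -0.29 (adjusted p = 0.135). Snhg6 and Snhg5, whose levels were low in GMP replicate 1, passed as higher in GMP when that library was left out: Snhg5 by 0.82 (edgeR adjusted p = 0.0043) and Snhg6 by 0.34 (adjusted p = 0.029). With all libraries they differed by 0.60 (adjusted p = 0.169) and 0.04 (adjusted p = 0.941). Without that library 6 members in all were higher in GMP than in CMP and 1 was lower. No share over all genes is given for that fit, so the counts show only how the calls depend on this library.

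Set against LMPP, GMP had 9 members higher of 31 tested (all genes: 25.9%) and 3 lower (all genes: 31.5%). The higher share is near the background and the lower one under it. Snhg9 was higher by 2.34 ± 0.20 (log2, edgeR adjusted p = 7.69e-05) and by 1.72 with scaling by total UMIs (adjusted p = 0.00017). Snord13 was higher by 2.003 ± 0.43 (adjusted p = 0.0056) and by 1.39 with total UMIs (adjusted p = 0.019). These 2 genes passed on both scales. Snora78, which lies within Snhg9, was higher by 1.45 ± 0.35 (adjusted p = 0.0091), and by 0.85 with total UMIs (adjusted p = 0.059). Rps2, antisense to both, was higher by 0.70 on the TMM scale (adjusted p = 0.021). Snhg3 (0.86, adjusted p = 0.0053), Snhg15 (0.77, adjusted p = 0.0022), Snord118 (1.22, adjusted p = 0.021) and Snhg11 (1.54, adjusted p = 0.032) passed on the TMM scale alone, and differed by 0.24, 0.15, 0.63 and 1.05 with total UMIs. Snhg20 (0.51, adjusted p = 0.047) and Snhg17 (0.38, adjusted p = 0.049) also passed there, and their signs turned with scaling by total UMIs, to -0.12 and -0.24, neither past the threshold.

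The 3 members lower in GMP than in LMPP were Snhg18, Snora31 and Snora21. Snhg18 had a CPM ratio of 0.0638 with a counting interval of 0.0375 to 0.104, from 21 UMIs in GMP against 84 in LMPP (edgeR adjusted p = 0.0019). Snora31 had a ratio of 0.212 (0.130 to 0.342) and Snora21 of 0.213 (0.127 to 0.355), with edgeR adjusted p of 0.018 and 0.017. Both H/ACA snoRNAs kept their direction with total UMIs (adjusted p = 0.0037 and 0.0035) and missed the threshold with DESeq2's Wald test (adjusted p = 0.233 and 0.264). Scaling by total UMIs moved the median of all genes to -0.70, and 9 members were then lower in GMP (all genes: 51.9%) and 2 higher (all genes: 10.9%). Of the lower members, Snhg12 differed by -0.96 (adjusted p = 0.0013), Snhg8 by -0.87 (adjusted p = 0.0022), Zfas1 by -0.76 (adjusted p = 0.0012) and Gas5 by -0.73 (adjusted p = 0.0012), which for Gas5 and Zfas1 is close to that median. Dancr differed by -0.46 with total UMIs (adjusted p = 0.028) and by 0.16 on the TMM scale (adjusted p = 0.370). Without GMP replicate 1, on the TMM scale, 11 members were higher in GMP than in LMPP and 5 were lower, again with no share over all genes given.

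**Figure D2:**
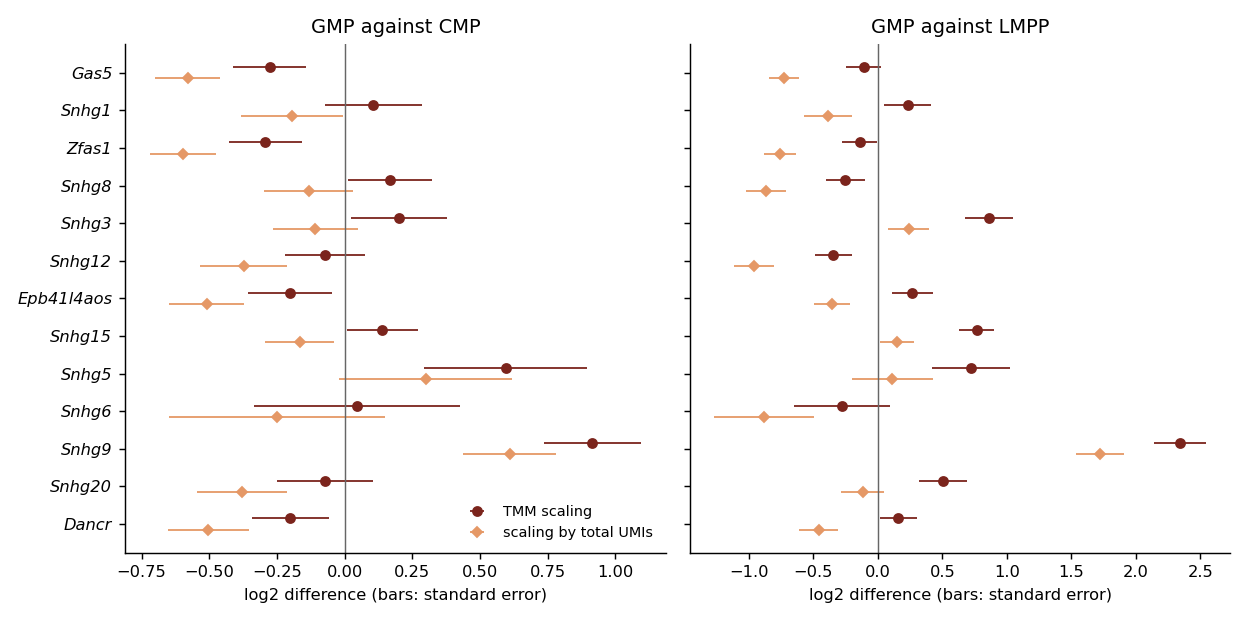
Log2 differences of GMP against CMP and of GMP against LMPP for the 13 hosts at 20 CPM or more, with bars of 1 standard error; dark circles use TMM factors and light diamonds scale by total UMIs. Gas5, Zfas1 and Dancr lie left of 0 on the total UMI scale in both panels, and Snhg9 lies right of 0 on both scales.

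The proteins that assemble with snoRNAs were set beside the hosts. Of 8 snoRNP proteins, 8 were higher in GMP than in LMPP on the TMM scale and 2 on the total UMI scale. Nhp2, an H/ACA protein, had 595, 613 and 532 CPM in GMP, 359 CPM in CMP and 228 CPM in LMPP. It was higher in GMP than in LMPP by 1.97 ± 0.17 (edgeR adjusted p = 8.82e-05), and Nop10 of the same complex by 1.52 ± 0.21 (adjusted p = 0.00063), and on the total UMI scale by 1.35 and 0.89. Of 11 assembly factors 10 were higher and none lower (4 higher on the total UMI scale), and of 15 protein-coding hosts 9 were higher and none lower (none higher and 5 lower on the total UMI scale). Ribosomal protein genes had 48 of 79 higher and none lower (8 higher and 12 lower on the total UMI scale), and 14 factors of nonsense-mediated decay had 5 higher and 1 lower (1 higher and 6 lower on the total UMI scale). On the TMM scale the medians of these lists (0.37 to 0.90) exceeded that of the 13 abundant hosts (0.23) and that of all genes (-0.09). Against CMP, 2 of the 8 snoRNP proteins, 3 of the 11 assembly factors and 7 of the 79 ribosomal protein genes were higher on the TMM scale. On the total UMI scale 2 snoRNP proteins were higher and 1 lower, 1 assembly factor was higher and none lower, and 1 ribosomal protein gene was higher and 10 were lower. The immediate early genes, which rise during cell isolation, summed to 2892, 2039 and 2254 CPM in GMP, 7752 CPM in CMP and 11399 CPM in LMPP, and the nuclear RNAs Malat1 and Neat1 to 7987, 6342 and 6384 CPM in GMP, 12184 CPM in CMP and 19418 CPM in LMPP. Their part in the differences between populations was not tested, nor was that of the mature neutrophil genes in the LMPP library.

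CMP and LMPP were 1 library each, so their ratios carry counting intervals and no test. Of 25 members with 20 UMIs or more over the pair, 2 were at least 2-fold higher in CMP (all genes: 3.78%) and 4 at least 2-fold lower (all genes: 21.6%), with the median gene at a ratio of 0.80. Snhg9 stood at 25.6 CPM in CMP and 11.8 CPM in LMPP, a ratio of 2.17 (95% counting interval 2.01 to 2.34). Snora73b had 25 UMIs in CMP and 11 UMIs in LMPP, a ratio of 2.37 (1.13 to 5.35). The 4 lower members were all rare: Snhg14 (ratio 0.353, interval 0.25 to 0.491), Snhg18 (0.336, interval 0.209 to 0.524), Snora21 (0.348, interval 0.165 to 0.685) and Snora31 (0.408, interval 0.214 to 0.743). With TMM-scaled CPM, 3 were higher (all genes: 6.65%), Snord13 joining them at 2.11, and 3 were lower (all genes: 14.9%), Snora31 standing at 0.502. Among the abundant hosts the unscaled ratios ran from 0.601 for Snhg8 to 1.27 for Snhg3, Snhg9 aside. Snhg9 was thus highest in GMP, then in CMP and then in LMPP, and Snhg18 had the opposite order, with the tests against GMP given above.

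Total UMIs per cell vary several-fold within each library, and the association of the hosts with them was examined by quartiles of cells (25% each). In every library, cells of the top quartile by total UMIs gave a smaller share of their UMIs to these genes than cells of the bottom quartile. The 33 members summed to 1437, 1586 and 1522 CPM in the top quartile, against 1655, 1908 and 1817 CPM in the bottom quartile, of the GMP libraries. In CMP they summed to 1869 CPM in the top and 2540.1 CPM in the bottom quartile, and in LMPP to 2036 and 3066 CPM. The UMIs themselves still grew with the cell's total: Gas5 had 11.7, 12.5 and 14.5 UMIs per top-quartile cell and 3.45, 5.47 and 6.44 per bottom-quartile cell in GMP. In CMP Gas5 had 17.4 UMIs per top-quartile cell and 6.12 per bottom-quartile cell, and in LMPP 18.4 and 7.03. The median total differed between top and bottom quartiles by a factor of 3.27, 2.56 and 2.42 in GMP, 3.76 in CMP and 3.96 in LMPP.

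Of 20 members tested with the library as a block (10 sums, edgeR quasi-likelihood test), 8 were lower in the top quartile (all genes: 15.7%) and 1 was higher (all genes: 18%). The share of members that were lower on the TMM scale, 8 of 20, was above the background. With scaling by total UMIs 6 were lower (all genes: 1879 of 14123) and 1 was higher (all genes: 2128 of 14123). Snhg20 had 18.5, 14.9 and 13.9 CPM in the top and 28.1, 23.4 and 23.2 CPM in the bottom quartile of GMP, 20.3 and 34.1 CPM in CMP, and 18.0 and 25.1 CPM in LMPP. It was lower in 5 of 5 libraries, by 0.67 ± 0.07 (log2 difference -0.67, SE, adjusted p = 0.0013). Dancr had 15.04, 15.96 and 13.1 CPM in the top and 19.7, 25.7 and 23.3 CPM in the bottom quartile of GMP, 20.01 and 34.5 CPM in CMP, and 21.3 and 28.8 CPM in LMPP. Its log2 difference was -0.65 ± 0.09 (adjusted p = 0.0030), again lower in 5 of 5 libraries. Zfas1 (-0.51, adjusted p = 0.024), Gas5 (-0.49, adjusted p = 0.012), Epb41l4aos (-0.47, adjusted p = 0.038), Snhg10 (-0.39, adjusted p = 0.036) and Snhg8 (-0.30, adjusted p = 0.040) were lower in each library as well. Snhg3 (-0.23, adjusted p = 0.017) was lower in 4 of 5 libraries. The result was weaker in 9 of 15 alternatives for Snhg10, 8 for Snhg8, 7 for Snhg3 and 6 for Epb41l4aos. For Zfas1 it was weaker in 2, and for Gas5, Dancr and Snhg20 in 1 each.

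Snhg5 was the exception. It had 25.3, 46.6 and 44.5 CPM in the top and 22.3, 38.6 and 35.5 CPM in the bottom quartile of GMP, 31.4 and 23.2 CPM in CMP, and 35.1 and 27.1 CPM in LMPP. The top quartile was higher in 5 of 5 libraries, by 0.29 ± 0.06 (log2, edgeR adjusted p = 0.0082). Snhg17 and Snhg1 differed by 0.07 (adjusted p = 0.472) and -0.12 (adjusted p = 0.180). Among the comparison lists on the TMM scale, 7 of 8 snoRNP proteins and 8 of 15 protein-coding hosts were higher in the top quartile and none was lower. Of 79 ribosomal protein genes 15 were lower and 2 higher. The medians on that scale were 0.37, 0.24 and -0.16 for these lists, against -0.24 for the 13 abundant hosts and -0.01 for all genes. With scaling by total UMIs 6 snoRNP proteins and 6 protein-coding hosts were higher and none lower, and 37 ribosomal protein genes were lower and 3 higher.

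Other features moved with total UMIs. S and G2M phase genes summed to 14042 CPM in the top and 4252 CPM in the bottom quartile of LMPP, 11394 and 4098 CPM in CMP, but 9165 to 10356 CPM and 6650 to 7577 CPM in GMP. Immediate early genes summed to 8637 CPM in the top and 13717 CPM in the bottom quartile of LMPP, to 5542 and 11035 CPM in CMP, and to 1731 to 2390.0 CPM and 3558 to 5379 CPM in GMP. Stem cell genes summed to 999.5 CPM in the top and 1781 CPM in the bottom quartile of LMPP, and to 229 and 470.0 CPM in CMP. Granulocyte genes summed to 33082 to 36753 CPM in the top and 25343 to 30143 CPM in the bottom quartile of GMP, 5336 and 1600.2 CPM in CMP, and 4436 and 1125 CPM in LMPP. Their part was not tested, except that when only the cells below the median share of S and G2M phase UMIs were ranked, 5 members were lower and none higher. No share over all genes is given for that fit. Leaving out CMP, or any 1 of the 3 GMP libraries, left 4 members lower (Zfas1 missed the threshold without CMP, adjusted p = 0.057). Gas5, Dancr and Snhg20 passed in each of these fits.

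**Figure D3:**
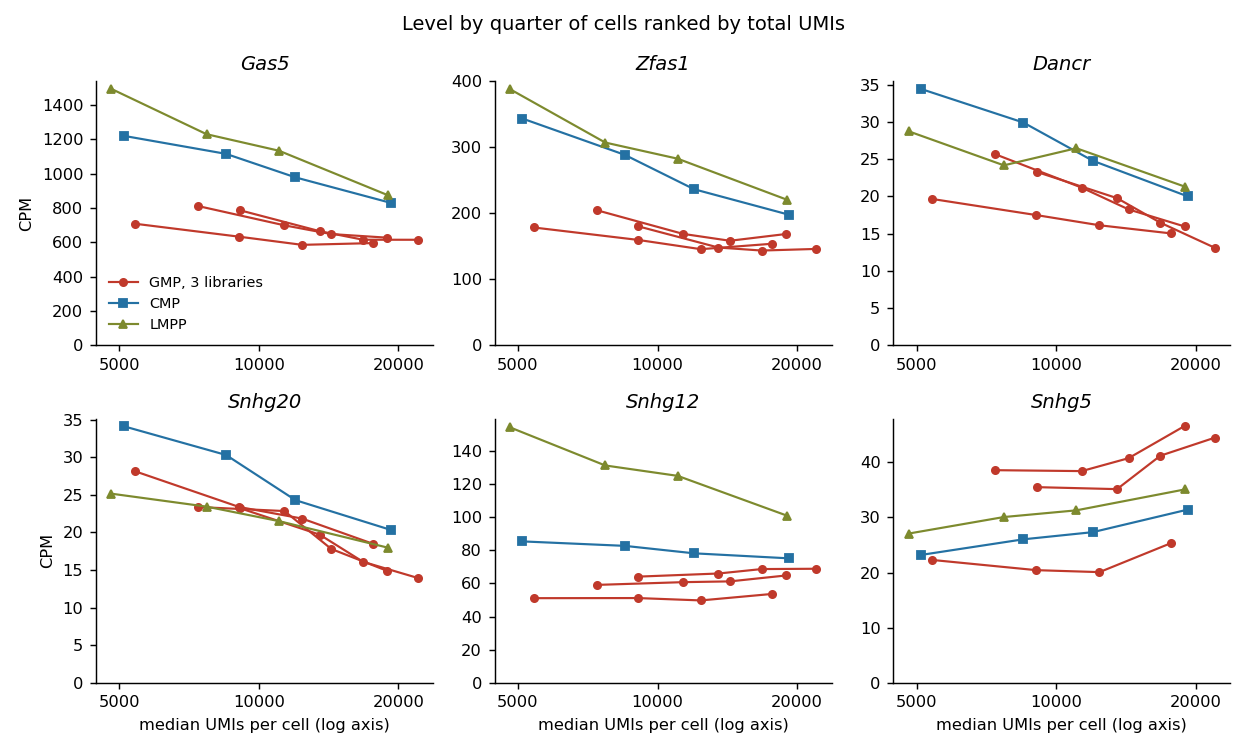
CPM of 6 hosts in the 4 quartiles of cells of each library, plotted at the quartile's median of total UMIs per cell (log axis); red lines are the 3 GMP libraries, blue CMP and green LMPP. The top quartile of Gas5, Zfas1, Dancr and Snhg20 lies below the bottom quartile in every library, though Zfas1 in GMP and Gas5 in GMP replicate 1 are lowest in the third quartile, and that of Snhg5 lies above it.

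The slope was also compared between GMP and the other libraries. The fit pooled CMP and LMPP, 1 library each, so a difference between them enters its spread (3 residual degrees of freedom). The term for GMP minus the other libraries was positive and past the threshold for 7 of 20 members (all genes: 9.78%) and negative for none (all genes: 13.9%). Zfas1 had 154, 169 and 146 CPM in the top and 179, 205 and 180.2 CPM in the bottom quartile of GMP, 198 and 344 CPM in CMP, and 221 and 388 CPM in LMPP. The log2 ratios were -0.21 to -0.30 in GMP, -0.80 in CMP and -0.82 in LMPP, and they differed by 0.73 ± 0.07 on the TMM scale (edgeR interaction term, adjusted p = 3.35e-05). Epb41l4aos gave ratios of -0.17 to -0.24 in GMP, -0.80 in CMP and -0.81 in LMPP (difference 0.77 ± 0.08, adjusted p = 4.70e-05). Snhg12 gave 0.07 to 0.13 in GMP, -0.18 in CMP and -0.61 in LMPP (difference 0.70 ± 0.12, adjusted p = 0.0013). For these 3 hosts, and also for Gas5, Snhg6 and Snhg8 but not for Snhg1, the GMP ratios did not overlap with the other 2. How often this held over all genes was not counted. Gas5 (0.53, adjusted p = 0.00085), Snhg6 (0.46, adjusted p = 0.011), Snhg8 (0.41, adjusted p = 0.0063) and Snhg1 (0.24, adjusted p = 0.037) differed the same way. With scaling by total UMIs, where the median gene differed by -0.22, 4 were positive (Epb41l4aos, Zfas1, Snhg12 and Gas5, all genes: 3.97%) and 1 was negative (Snhg3, -0.36, adjusted p = 0.0052, all genes: 26%). On the TMM scale ribosomal protein genes had 58 of 79 positive and 1 negative, while no snoRNP protein was positive and 4 of 8 were negative. With scaling by total UMIs 38 ribosomal protein genes were positive and 5 negative, and 6 snoRNP proteins were negative and none positive. On the TMM scale without GMP replicate 1, 6 members were positive and none negative.

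**Figure D4:**
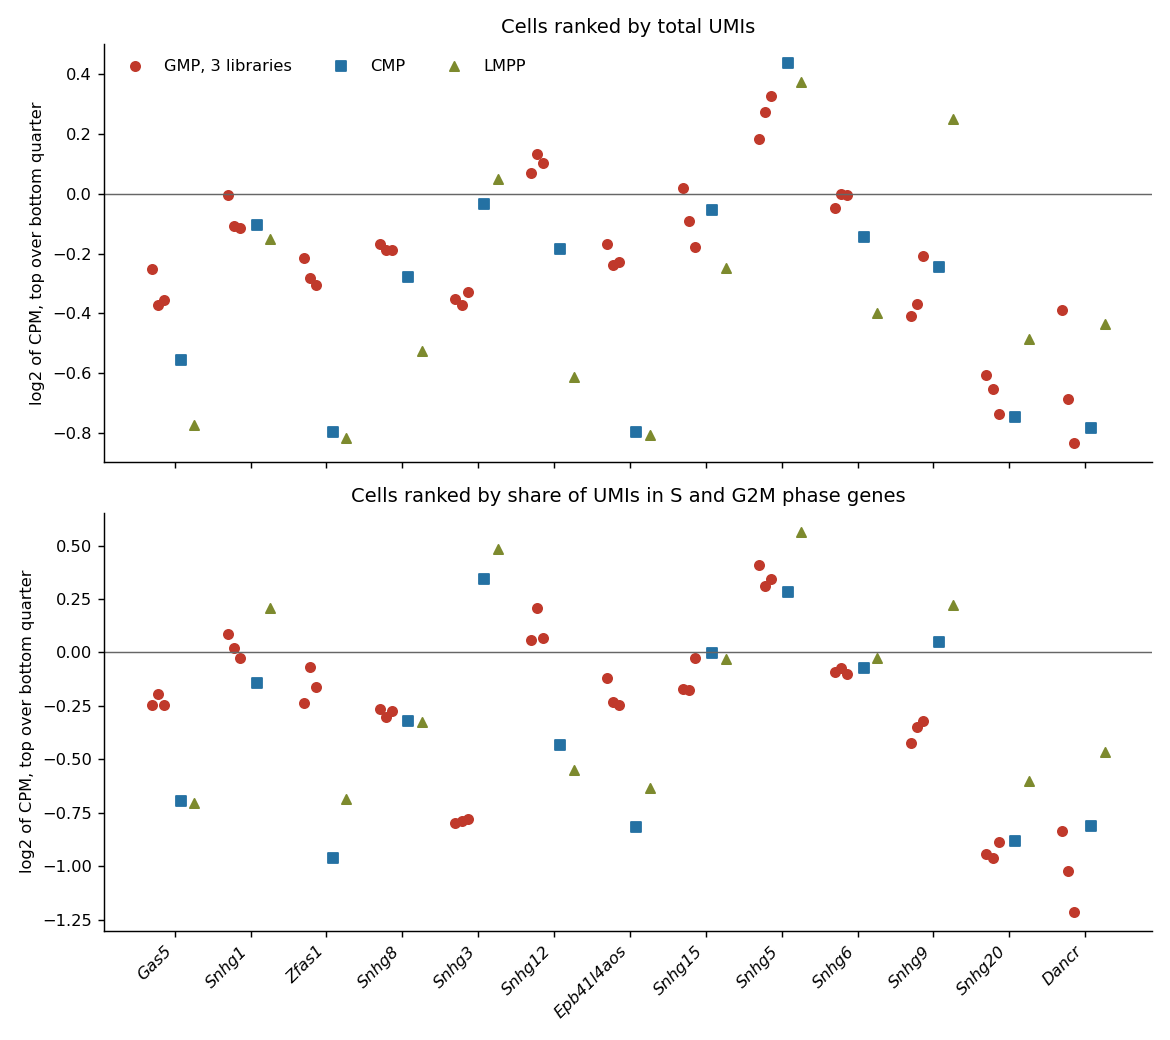
Log2 ratio of CPM in the top over the bottom quartile of cells for 13 hosts, 1 point per library (red circles GMP, blue squares CMP, green triangles LMPP), with cells ranked by total UMIs in the upper panel and by the share of UMIs in S and G2M phase genes in the lower panel. For Snhg3 in the lower panel the 3 GMP libraries lie at -0.78 to -0.80, CMP at 0.34 and LMPP at 0.49.

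Cells were also ranked by the share of their UMIs in S and G2M phase genes. Dancr and Snhg20 were lower in the most cycling quartile of every library. Dancr had 11.8, 13.96 and 11.1 CPM in the top and 20.99, 28.4 and 25.6 CPM in the bottom quartile of GMP, 17.5 and 30.7 CPM in CMP, and 17.7 and 24.5 CPM in LMPP. Its difference was -0.93 ± 0.12 (log2, edgeR adjusted p = 0.0033). Snhg20 had 15.4, 13.6 and 12.9 CPM in the top and 29.5, 26.5 and 23.9 CPM in the bottom quartile of GMP, 17.3 and 31.8 CPM in CMP, and 17.1 and 25.96 CPM in LMPP, a difference of -0.91 ± 0.08 (adjusted p = 0.0011). Of 20 members tested, 7 were lower (all genes: 14%) and 1 was higher (all genes: 10.9%). The others that were lower were Snhg10 (-0.65, adjusted p = 0.029), Zfas1 (-0.48, adjusted p = 0.027), Gas5 (-0.48, adjusted p = 0.0083), Epb41l4aos (-0.47, adjusted p = 0.013) and Snhg8 (-0.36, adjusted p = 0.0051). Snhg5 was higher, by 0.32 ± 0.07 (adjusted p = 0.019). Ribosomal protein genes had 41 of 79 lower and none higher, with a median of -0.21, and 1 of 8 snoRNP proteins was higher and none lower.

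This ranking also sorts cells by RNA content. The median of total UMIs was 13143, 15615 and 19005 in the top and 7648, 9571 and 11404 in the bottom quartile of GMP, 16312 and 6725 in CMP, and 15421 and 6013 in LMPP. Among cells between the lower and upper quartile of total UMIs of their library, 1 member was lower and none higher, with no share over all genes given. In that comparison Dancr differed by -0.70 (edgeR adjusted p = 0.055). Without GMP replicate 1, and with all cells, 5 members were lower and none higher.

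Snhg3 moved in opposite directions in the populations. It had 99.3, 102.8 and 80.95 CPM in the top and 173, 178 and 139 CPM in the bottom quartile of GMP, but 136 CPM in the top and 107 CPM in the bottom quartile of CMP, and 113 and 80.4 CPM in LMPP. All 3 GMP libraries fell on 1 side and CMP and LMPP on the other, and the difference of GMP minus the other libraries was -1.32 ± 0.07 (log2, edgeR interaction term, adjusted p = 4.92e-07). This term was fitted because those ratios had been seen, so its p is a description and no independent test. It stayed between -1.76 and -1.20 in 8 of 8 alternatives, among them the cells between the quartiles of total UMIs. Over all 5 libraries the difference was -0.37 ± 0.25 (adjusted p = 0.305). In GMP alone the top quartile was lower by 0.88 (log2 difference -0.88, adjusted p = 5.43e-15). Rcc1, which encodes the exchange factor of Ran and shares exon sequence with Snhg3, gave an interaction term of -1.25 ± 0.14 (adjusted p = 6.61e-05), and rose with cell cycle share over all libraries by 1.01 ± 0.24 (adjusted p = 0.025). Reads of the shared exons cannot be told apart, and their part in the counts of either gene was not tested. Cells of the bottom quartile also differ between the populations: granulocyte genes summed to 36783, 32875 and 36125 CPM there in GMP, 2428 CPM in CMP and 1192 CPM in LMPP, and stem cell genes to 2107 CPM in LMPP.

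Without GMP replicate 1 the interaction gave 4 members in each direction. Over the 20 members tested, 5 were past the threshold in the positive direction (all genes: 16.2%) and 5 in the negative one (all genes: 18.6%). Negative with Snhg3 were Snhg10 (-0.72, adjusted p = 0.018), Snhg9 (-0.61, adjusted p = 0.00095), Dancr (-0.51, adjusted p = 0.010) and Snhg20 (-0.30, adjusted p = 0.046). The term of Snhg20 was weaker in 6 of 8 alternatives and that of Snhg10 in 3 of 8. Snhg9 had 34.0, 36.8 and 29.7 CPM in the top and 45.7, 47.0 and 37.1 CPM in the bottom quartile of GMP, 22.7 and 21.9 CPM in CMP, and 12.3 and 10.5 CPM in LMPP. Its 3 GMP ratios were below 0 and those of CMP and LMPP above it. Positive were Zfas1 (0.55, adjusted p = 0.00059), Snhg12 (0.49, adjusted p = 0.00078), Epb41l4aos (0.41, adjusted p = 0.0020), Snhg17 (0.38, adjusted p = 0.014) and Gas5 (0.35, adjusted p = 0.00053). Within the cells between the quartiles of total UMIs 1 of the members was positive and 8 were negative, with no share over all genes given for that fit. With all cells and on the TMM scale, all 8 snoRNP proteins were negative, with a median of -0.74. So were 8 of 11 assembly factors and 34 of 79 ribosomal protein genes, against a median of 0.04 over all genes. With scaling by total UMIs all 8 snoRNP proteins and 6 assembly factors were negative. Ribosomal protein genes then had 11 positive and 11 negative, and the median over all genes was 0.16.

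Within GMP, cells rich in monocyte genes were compared with cells rich in granule genes, taking the top quartile by each list without the overlap (6 sums, 3 libraries). These quartiles are ranges of a score and not cell types. Of 20 members, 4 were higher in the monocyte-gene quartile (all genes: 29.4%) and 7 were lower (all genes: 27.7%), shares near the background. Zfas1 had 165, 175 and 164 CPM in the monocyte-gene and 120.1, 133 and 115 CPM in the granule-gene quartile, and was higher by 0.28 ± 0.03 (log2, edgeR adjusted p = 1.13e-19). Snhg5 had 24.1, 45.3 and 43.1 CPM against 18.2, 32.5 and 32.7 CPM, higher by 0.25 ± 0.05 (adjusted p = 3.59e-07). Both were higher in the monocyte-gene quartile of each library and on both scales. Snhg12 (0.13, adjusted p = 0.00095) and Snora78 (0.58, adjusted p = 0.015) were higher as well, and with scaling by total UMIs they were higher by 0.31 and 0.75. Both missed the threshold with DESeq2's Wald test (adjusted p = 0.114 and 0.219).

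Dancr had 13.9, 15.97 and 14.3 CPM in the monocyte-gene and 17.5, 18.3 and 15.9 CPM in the granule-gene quartile, lower by 0.40 ± 0.06 (log2 difference -0.40, edgeR adjusted p = 8.87e-09). Snhg3 had 124, 122 and 96.7 CPM against 132, 133 and 109 CPM (-0.31 ± 0.03, adjusted p = 1.40e-21). Snhg8 had 115, 143 and 154 CPM against 117.4, 153 and 164 CPM (-0.25 ± 0.03, adjusted p = 4.88e-17). These 3 hosts were lower in each library and on both scales. Snhg15 (-0.19, adjusted p = 9.01e-05), Snhg20 (-0.18, adjusted p = 0.0064), Snhg6 (-0.16, adjusted p = 0.0028) and Snhg9 (-0.11, adjusted p = 0.019) passed on the TMM scale, and with total UMIs, where the median gene stood at 0.19, none of them did. On that scale Gas5 was higher in the monocyte-gene quartile by 0.16 (adjusted p = 9.19e-21), with 591, 655 and 648 CPM against 524, 597 and 569 CPM, while on the TMM scale it differed by -0.01 (adjusted p = 0.474). Ribosomal protein genes had 76 of 79 lower on the TMM scale, and 49 lower and 12 higher with total UMIs. Immediate early genes had 14 of 15 higher on both scales. Of 8 snoRNP proteins 7 were lower and 1 higher on the TMM scale, and 2 were lower and 2 higher with total UMIs.

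**Figure D5:**
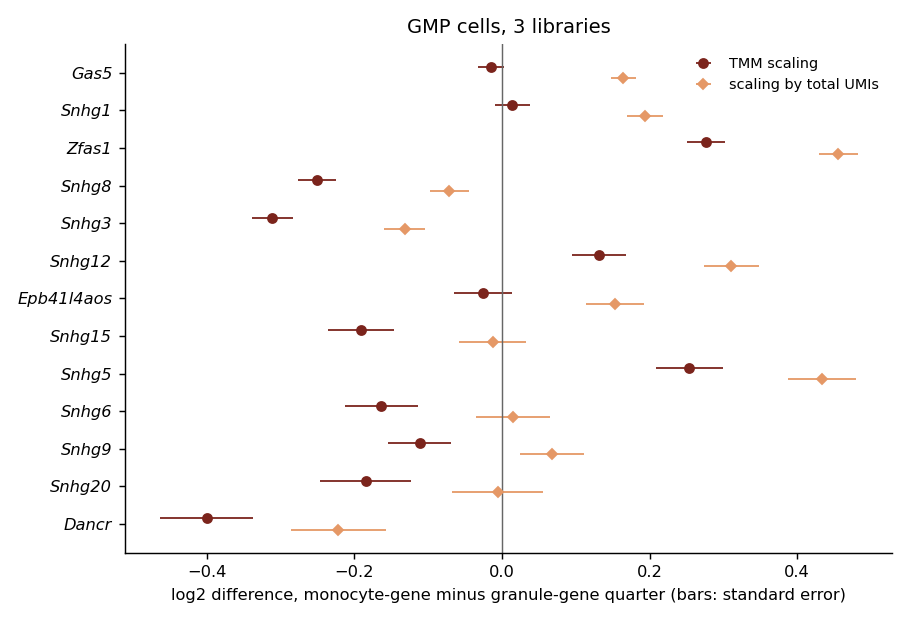
Log2 differences between the monocyte-gene and the granule-gene quartile of GMP cells (3 libraries) for the hosts at 20 CPM or more, with bars of 1 standard error; dark circles use TMM factors and light diamonds scale by total UMIs. Zfas1 and Snhg5 lie right of 0 and Dancr, Snhg3 and Snhg8 left of 0 on both scales, and Gas5 lies at -0.01 with TMM factors and at 0.16 with total UMIs.

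CMP cells rich in erythroid genes were set beside CMP cells rich in lymphoid genes, and LMPP cells rich in stem cell genes beside LMPP cells rich in lymphoid genes, in 1 library each and without a test. In CMP none of 18 members differed 2-fold (all genes: 6.37% higher and 7.95% lower). Snhg3 came nearest, with 194 CPM in the erythroid-gene and 97.1 CPM in the lymphoid-gene quartile, a ratio of 1.99 (95% counting interval 1.89 to 2.11). Gas5 had 1140 CPM and 934 CPM, a ratio of 1.22 (1.197 to 1.245). In LMPP, 2 of 18 members were at least 2-fold higher in the stem-gene quartile (all genes: 8.75%) and none was 2-fold lower (all genes: 4.64%). These were Snhg14, with 33 UMIs in the stem-gene and 26 UMIs in the lymphoid-gene quartile (CPM ratio 2.08, interval 1.21 to 3.62), and Snhg18, with 20 and 12 UMIs (2.73, interval 1.27 to 6.12). Snhg3 had 69.9 CPM in the stem-gene and 98.1 CPM in the lymphoid-gene quartile (0.712, interval 0.656 to 0.773), and Gas5 1308 CPM and 999 CPM (1.31, interval 1.28 to 1.34). Median totals were 9080 UMIs in the erythroid-gene and 11275 in the lymphoid-gene quartile of CMP, and 7625 in the stem-gene and 11638 in the lymphoid-gene quartile of LMPP.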

How the data were processed

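The authors deposited 1 matrix per library with UMI counts for each gene in each barcode. Per the submitters' processing notes, Cell Ranger 3.1.0, Seurat 3.1.1 and mm10 were used, while the header inside each deposited matrix names Cell Ranger 6.1.1; how barcodes were kept is not given in the sources used here. All 55450 gene identifiers match GENCODE M21, which gave coordinates and overlaps. A barcode was kept at 500 or more genes, 1000 or more UMIs and at most 10% of UMIs from mitochondrial genes, which removed 77 to 387 per library. Doublets (432 to 783 per library) were called from simulated doublets at 0.8% per 1000 barcodes and removed.

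UMIs were summed per library or per quartile of cells, since cells are not replicates, and tested with edgeR 4.0.16 (limma 3.58.1, R 4.3.3): quasi-likelihood test, TMM factors, filterByExpr, prior count of 2, Benjamini-Hochberg adjustment over all genes tested, threshold 0.05. Comparisons of quartiles had the library as a block. DESeq2 1.42.0 was an alternative. Counts of members in refits without a share over all genes beside them show only how calls move with the setting. Ratios of single libraries have exact 95% intervals that cover counting error only; genes needed 20 UMIs over the pair. Scripts ran in Python 3.11.15 and were tested on simulated data. RefSeq promoters and GENCODE M21 transcripts gave the sequences.

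Named were the hosts at a mean of 20 CPM or more and every snoRNA member, with their values, and in each tested comparison the members past the threshold, up to 6 in each direction; some members that missed it are given too. Members and lists were chosen with earlier results of these data known. The study's text calls the GMP libraries biological replicates without naming animals, so p-values between populations rest on the spread between these libraries. Those of quartile comparisons rest on how far the difference within a library varied between libraries (2 residual degrees of freedom in the monocyte-gene fit). Since edgeR also draws on the spread of all genes tested, very small p-values do not come from these few libraries alone.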

Additional observations from a re-analysis of the deposited data

Results flagged for a closer look

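For 17 results the response of a host differed between GMP and the other libraries by the test of the difference itself (edgeR interaction term, GMP minus CMP and LMPP, TMM scale, log2), with GMP as 3 libraries and CMP and LMPP as 1 each. The fit pooled CMP and LMPP, so a difference between them enters its spread.

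In the comparison of the top with the bottom quartile by total UMIs, the difference was 0.77 for Epb41l4aos, 0.73 for Zfas1, 0.70 for Snhg12, 0.53 for Gas5, 0.46 for Snhg6, 0.41 for Snhg8 and 0.24 for Snhg1. In each of these hosts except Snhg1 the decline toward cells with many UMIs was smaller in every GMP library than in CMP and LMPP, or absent. The log2 ratios of Snhg1 were -0.01, -0.11 and -0.11 in GMP, -0.11 in CMP and -0.15 in LMPP, and its term missed the threshold with scaling by total UMIs (adjusted p = 0.640). The term of Snhg1 was weaker in 5 of 7 alternatives, that of Snhg6 in 4 of 7 and that of Snhg8 in 1 of 7. Of the members tested, 7 of 20 were positive, where 9.78% of all genes were.

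In the comparison by share of S and G2M phase UMIs, the difference was -1.32 for Snhg3, -0.72 for Snhg10, -0.61 for Snhg9, -0.51 for Dancr and -0.30 for Snhg20, and 0.55 for Zfas1, 0.49 for Snhg12, 0.41 for Epb41l4aos, 0.38 for Snhg17 and 0.35 for Gas5. Snhg3 and Snhg9 fell with cell cycle share in all 3 GMP libraries and had ratios above 0 in CMP and LMPP. Rcc1, which shares exon sequence with Snhg3, gave -1.25, and Rps2, antisense to Snhg9, gave -0.43 (adjusted p = 7.78e-05). The term of Snhg20 was weaker in 6 of 8 alternatives, those of Snhg10 and Snhg17 in 3 of 8, and the others in at most 1. Snhg20 had log2 ratios of -0.94, -0.96 and -0.88 in GMP, -0.88 in CMP and -0.60 in LMPP. This comparison by cell cycle share was added after the data were seen.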

How the results depend on the processing

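With scaling by total UMIs in place of TMM factors, 6 members were lower in GMP than in CMP (1 with TMM), 2 were higher and 9 lower than in LMPP (9 and 3 with TMM), 4 were positive and 1 negative in the total UMI interaction (7 and 0), and 9 were higher and 3 lower in the monocyte-gene quartile (4 and 7). Among values past the threshold on either scale, the sign turned with total UMIs for Snhg17 (-0.24), Dancr (-0.46) and Snhg20 (-0.12) against LMPP, and for Snhg6 (0.0154), Gas5 (0.16), Snhg9 (0.0674) and Epb41l4aos (0.15) in the monocyte-gene quartile. Snhg12 turned to 0.12 in the total UMI comparison with GMP libraries only, where 2 members were higher. Snhg9 against CMP and against LMPP, and Snhg3 in the cell cycle interaction, kept direction and call in all alternatives run for them.

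Counts here and in the next paragraph have no share over all genes beside them, so they show only how the calls move. With DESeq2's Wald test 1 member was higher and 0 lower against CMP, 1 lower against LMPP, and 2 higher and 4 lower in the monocyte-gene quartile. Against CMP, 1 was higher with all deposited barcodes or with doublet calls kept, 5 with no filter on low counts, and 0 lower with only the groups compared fitted. Without the library block the total UMI comparison called 0 in either direction, the cell cycle comparison 0 higher and 2 lower, and the monocyte-gene comparison 1 and 1. In cells with a low cell cycle share the total UMI comparison called 0 higher and 5 lower. The cell cycle comparison called 12 lower in GMP alone, and 0 higher and 1 lower in the cells between the quartiles of total UMIs; its interaction there called 1 positive and 8 negative, and the monocyte-gene comparison 4 lower. With tertiles of cells in place of quartiles, 1 member was lower in the erythroid-gene cells of CMP, and 1 higher in the stem-gene cells of LMPP, as with TMM-scaled CPM or doublet calls kept.

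Leaving out 1 library at a time gave 1 to 6 members higher and 1 to 1 lower against CMP (6 without GMP replicate 1, 1 without replicate 2), 8 to 11 higher and 2 to 5 lower against LMPP (5 lower without GMP replicate 1), 4 to 8 lower by total UMIs (4 without CMP or any GMP replicate), 5 to 7 positive and 0 to 1 negative (1 without CMP) in its interaction, 0 to 1 higher (0 without GMP replicate 1 or 3) and 5 to 7 lower by cell cycle, 4 to 5 positive and 3 to 8 negative in its interaction (8 without CMP, 3 without LMPP or GMP replicate 2 or 3), 4 to 4 higher and 5 to 6 lower in the monocyte-gene quartile, and a median CV of 5.82% to 16.3%. The quartile comparisons had the library as a block, and between populations there was none. No paired analysis was possible because, between populations, CMP and LMPP have 1 library each and only GMP libraries carry replicate numbers. Single libraries, Snora and Snord genes of few UMIs, and 2 residual degrees of freedom limit the comparisons between populations.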
